A study of Mus musculus with 6 samples.

Results

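The cells described here are those of the sagittal suture and the parietal bone beside it (CBMA) in mice of 18m against mice of 12m, the ages in months. CBMA_12m held 2718 cells and CBMA_18m held 7232 after quality limits of 500 to 5000 genes, over 500 unique molecular identifiers (UMIs, 1 per captured transcript) and under 25% mitochondrial UMIs, 9950 of the 37576 cells that passed in all 6 libraries. All cells were compared first, and then the cells that passed 4 gates on their own UMIs. The neutrophil gate took cells with at least 2% of UMIs from S100a8 and S100a9, the monocyte gate those with at least 3 UMIs of Ly6c2 and 1 of Ccr2, the T gate those with at least 2 UMIs of Cd3d, Cd3e and Cd3g, and the stromal gate those with at least 20 UMIs of Col1a1, Col1a2 and Cxcl12. The gates held 1470, 325, 116 and 15 cells at 12m and 4117, 920, 384 and 242 at 18m, and 879 and 1704 cells passed none.

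All mice were wild-type C57BL/6, stated to be male, with no transgene or treatment. Each library was 1 pool of cells from 6 to 8 mice, dissociated by enzymes after dura and periosteum had been taken off, with red cells lysed and dead cells removed. There is 1 library for each age and site, so no difference below has a replicate check and none was tested. The values describe these libraries, and the 95% intervals printed with them cover counting error only. Parietal bone farther from the suture (CBMD) at 12m and 18m, and both sites at 02m, are given side by side for orientation. The text of the study does not say whether the 2 sites came from the same mice.

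The library of 12m near the suture differs from the stated sex of its mice in a way that bears on all that follows. Xist, an RNA made from the inactive X chromosome of females, stood at 564 CPM there (UMIs of the gene scaled to 1000000 UMIs of the library) and at 596 CPM in CBMD_12m, and at 0.252 to 0.360 CPM in the other 4 libraries. In CBMA_12m 917 cells held Xist and no Y-linked UMI, 525 held a Y-linked UMI and no Xist, and 108 held both. Both 12m pools thus hold RNA of female cells, so sex and age cannot be told apart in the pooled values. Genes on the X and Y chromosomes were left out, and results are also given for the 525 cells of 12m and 3897 of 18m with a Y-linked UMI and no Xist. Depth differed too, at 16031737 UMIs in CBMA_12m and 53008232 in CBMA_18m, with medians of 2806 and 3738 UMIs per cell. The UMI sums of each class were therefore thinned at random to equal totals before any ratio was taken. The 2 libraries shared 6 cell barcodes.

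The calvaria is a flat bone with marrow inside it, and its sutures are the fibrous joints at which the plates grow. Suture mesenchyme supplies the osteoblasts that lay down bone. Marrow stromal cells rich in Cxcl12 hold stem cells and lymphocytes in place through CXCL12 and feed them with stem cell factor (Kitl). Neutrophils mature in this marrow in an order that can be read from their transcripts. Dividing precursors load primary granules (Elane, Mpo), then secondary granules (Ltf, Camp, Ngp), and mature cells carry receptors with which they leave for blood and tissue (Cxcr2). Stimulated neutrophils, monocytes and T cells share an early response in which NF-kB and AP-1 factors switch on cytokine genes such as Cxcl2 and Il1b, with their own brakes Nfkbia and Tnfaip3.

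Stromal cells made up a larger share of the 18m library, while neutrophil shares stood close together. The stromal gate took 15 of 2718 cells at 12m, 0.552% (0.309 to 0.909, exact binomial), and 242 of 7232 at 18m, 3.35% (2.94 to 3.79), a ratio of 6.06 (3.60 to 11). Far from the suture the stromal shares were 0.874% at 12m and 0.815% at 18m, and near the suture at 02m the share was 0.606%. Thinning every cell to 2000 UMIs before gating, which left out 960 and 1131 shallower cells, gave 0.512% and 2.61%, a ratio of 5.09. Among cells with a Y-linked UMI and no Xist only 2 stromal cells of 12m remained and the ratio was 11.4. Summed over the 5 mesenchymal markers that the gate did not use, Lepr, Pdgfra, Pdgfrb, Prrx1 and Dcn, the stromal gate stood at 13199 CPM at 12m and 6171 CPM at 18m, against 22 CPM at 12m and 37.7 CPM at 18m in the neutrophil gate, and none of the 5 was at 0 in either stromal gate. At 12m 70.6% of the Dcn UMIs in the stromal gate lay in 1 cell.

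The neutrophil gate took 54.1% of cells at 12m (52.2 to 56.0) and 56.9% at 18m (55.8 to 58.1), a ratio of 1.05 (0.991 to 1.12). The monocyte gate took 12.0% (10.8 to 13.2) and 12.7% (12.0 to 13.5), a ratio of 1.06 (0.936 to 1.21), and at 2000 UMIs per cell the ratio was 0.820 (0.677 to 0.999). The T gate took 4.27% (3.54 to 5.10) and 5.31% (4.80 to 5.85), a ratio of 1.24 (1.01 to 1.54), and at 2000 UMIs per cell the ratio was 0.900 (0.707 to 1.16). The intervals of the neutrophil and monocyte ratios without thinning include 1, as does that of the T-cell ratio at 2000 UMIs per cell. The directions of both the monocyte and the T-cell ratio turned in that setting. It also left out 960 cells of 12m and 1131 of 18m, so depth and the cells kept cannot be told apart there. A gate on a minimum number of UMIs is passed more readily by deeper cells, and the medians were 9137 and 10451 UMIs in the monocyte gate, 5812.5 and 6249.5 in the T gate and 3265 and 8766 in the stromal gate at 12m and 18m.

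**Figure D1:**
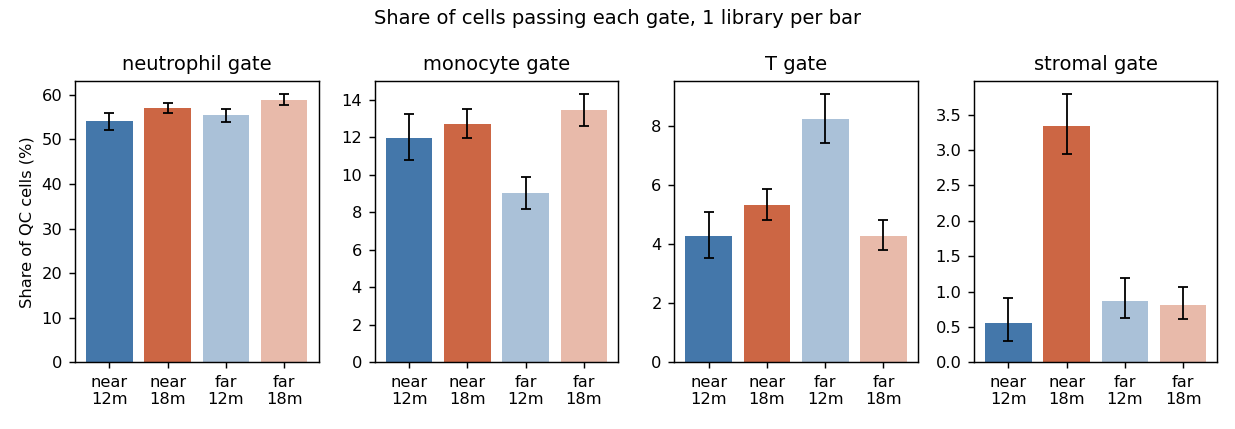
Share of quality-passed cells (%) in the neutrophil, monocyte, T and stromal gates, 1 bar per library near and far from the suture at 12m and 18m, with exact 95% binomial intervals of counting error. The stromal bar of 18m near the suture, at 3.35%, stands above the other 3, which lie between 0.552% and 0.874%.

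In all cells together, connective tissue transcripts were the set most shifted to 18m. After thinning to 12221067 UMIs each, 13025 genes outside X and Y had at least 50 UMIs over both libraries. A gene is called higher or lower at a ratio of 1.5-fold or more, with no test behind the word. Of these genes 10.7% were called higher at 18m (1398 genes) and 15.8% lower (2058). Medians are of log2 ratios with 0.5 UMI added. Over all genes tested they stood at -0.13 in all cells, -0.37 in the neutrophil gate, -0.026 in the monocyte gate, -0.22 in the T gate and -0.18 in the stromal gate. Scaling by median-of-ratios, which moves these medians towards 0, gave 1759 higher and 1402 lower in all cells, 55.6% of the calls higher in place of 40.5%. Ratios below are on total UMIs, and a list's median is read against the median of its class.

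Genes of suture and tendon-like tissue ranked first. Of 18 measured suture and tendon-like genes, 17 were called higher and 0 lower, with a median of 2.57, 2.70 above that of all genes, while the far site had 1 called higher and 10 called lower of 17 at a median of -0.94. Tnn (chr1:160085029-160153580), tenascin-W, a glycoprotein of bone and suture matrix, had 4 UMIs at 12m and 252 at 18m, a ratio of 63 (24.3 to 233). Postn (chr3:54361109-54391037), periostin of fibrous matrix, had 14 UMIs at 12m and 489 at 18m, a ratio of 34.9 (20.6 to 64.4). Across the 6 libraries Postn stood at 6.42, 1.15 and 38.7 CPM at 02m, 12m and 18m near the suture and 5.76, 9.65 and 1.02 CPM far from it, so near the suture 12m was the lowest age and far from it 18m was. Comp, a matrix protein of tendon and cartilage, had 32 and 338 UMIs, and Chad, chondroadherin, 19 and 225 UMIs.

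All 9 measured small leucine-rich proteoglycan genes, of 12 listed, were called higher, at a median of 2.49 (-0.59 far). The summed list of 12 had a ratio of 3.14 (3.00 to 3.29). Genes of this list encode the proteins that space collagen fibrils. Fmod, fibromodulin, had 61 UMIs at 12m and 802 at 18m, a ratio of 13.1 (10.1 to 17.4). Aspn had 84 and 725 UMIs, Ogn 130 and 1064 UMIs and Lum 225 and 1270 UMIs at 12m and 18m. Dcn, decorin, moved least, with 1839 UMIs at 12m and 3318 at 18m, a ratio of 1.80 (1.70 to 1.91). Near the suture Dcn stood at 54.0, 150.5 and 273 CPM at 02m, 12m and 18m, and its ratio was 0.966 with each cell thinned to 1000 UMIs, so its direction is not settled. The library of 18m near the suture was the highest of the 6 for 9 of these 9 genes and for 13 of the 18 above.

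Collagens and other matrix genes went the same way, 23 called higher and 1 lower of 30, at a median of 2.14 (-0.17 far). Col3a1 (chr1:45311538-45349706), the collagen of pliable tissue, had 59 UMIs at 12m and 1879 at 18m, a ratio of 31.8 (24.6 to 42.0). Over the 6 libraries it stood at 84.8, 4.83 and 156 CPM at 02m, 12m and 18m near the suture and 46.1, 44.9 and 3.59 CPM far from it, so CBMA_12m was low against 02m as well as against 18m, and CBMD_18m was low at its own site. Col12a1, which links fibrils under tension, had 87 and 1048 UMIs. Mgp, the matrix Gla protein that restrains mineral, had 1809 UMIs at 12m and 7392 at 18m, a ratio of 4.09 (3.88 to 4.30), and Mfap4, a microfibril protein, had 20 and 461 UMIs.

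Among marrow niche and CAR cell genes, 17 were called higher and 0 lower of 22, at a median of 1.91 (0.34 far). CAR cells are the Cxcl12-abundant reticular cells of marrow. Igfbp5, which binds insulin-like growth factors, had 1204 UMIs at 12m and 7394 at 18m, a ratio of 6.14 (5.78 to 6.53). Adipoq, adiponectin, had 21 and 311 UMIs, Lepr, the leptin receptor that marks these cells, 86 and 372 UMIs, and Kitl 233 and 583 UMIs. Grem1, an inhibitor of BMP signals, had 6 and 149 UMIs, and Cxcl14, a chemokine, 15 and 300 UMIs. Lepr stood at 0.858, 7.04 and 31.2 CPM at 02m, 12m and 18m near the suture and 1.31, 10.4 and 13.5 CPM far from it, lowest at 02m at both sites.

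Osteoblast and mural transcripts were called higher in part, and endothelial transcripts lower. Of 21 listed osteoblast and mineralization genes, 14 were measured. Of these, 9 were called higher and 0 lower, at a median of 1.48 (-0.61 far). The summed list of 21 had a ratio of 2.57 (2.47 to 2.68). Ibsp, bone sialoprotein, had 238 UMIs at 12m and 986 at 18m, and Sparc, osteonectin, 601 and 4173 UMIs. Of 11 mural genes, 7 were called higher and 2 lower, with smooth muscle Acta2 at 1032 and 2419 UMIs and Myh11 at 573 and 1333 UMIs, while the pericyte gene Rgs5 had 254 and 162 UMIs. Of 16 endothelial genes, 1 was called higher and 12 lower, at a median of -0.90 (-0.36 far). Cldn5 of tight junctions had 348 UMIs at 12m and 64 at 18m, a ratio of 0.184 (0.139 to 0.241), Vwf, von Willebrand factor, 900 and 324 UMIs, and Pecam1 943 and 518 UMIs. CBMA_12m was the highest of the 6 libraries for 13 of the 16 endothelial genes, so 12m stood apart here from 02m as well.

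**Figure D2:**
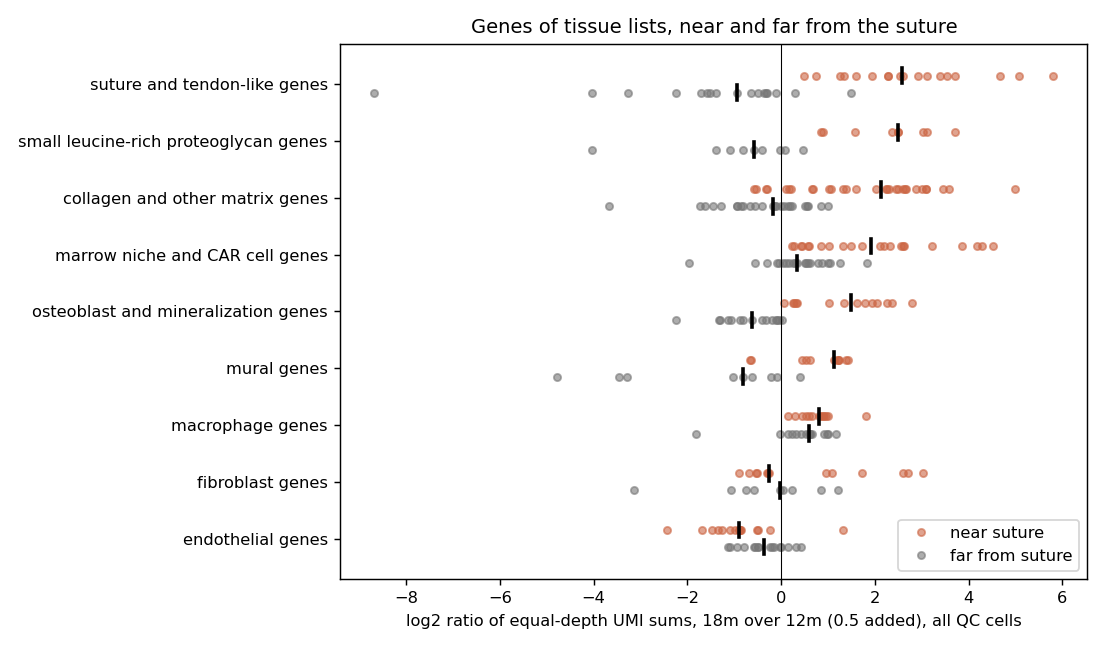
Log2 ratio of equal-depth UMI sums, 18m over 12m, in all quality-passed cells for the measured genes (points) of 9 tissue lists, near the suture (orange) and far from it (grey), with list medians as bars. Near the suture the medians of the first 5 lists lie between 1.48 and 2.57, and far from it between -0.94 and 0.34.

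Outside X and Y genes, the stromal gate held 77201 of 12221067 UMIs at 12m and 2182879 of 38476891 at 18m. The 18m sums were reweighted so that each gate, and the cells of no gate, held the same part of all UMIs as at 12m. These weights are shares of UMIs and not of cells, so cell number and RNA per cell enter them together. The median of suture and tendon-like genes was then 0.44 (7 called higher and 2 called lower of 16). That of small leucine-rich proteoglycan genes was 0.57 and that of collagen and other matrix genes 0.32 (6 called higher and 5 called lower of 28). Marrow niche and CAR cell genes stood at 0.04 and osteoblast and mineralization genes at 0.032, all against -0.24 over all genes. Ratios of Postn and Col3a1 were then 4.91 and 4.59. Those of Lepr and Dcn were 0.868 and 0.507, below 1. The median of mural genes was 0.80 and that of endothelial genes -1.05 under the same weights. No gate was made for mural or endothelial cells, so these weights do not hold their part of the UMIs fixed. They cannot show whether the number of those cells entered the ratios. Cells of 1 kind being more numerous and holding more RNA each cannot be told apart in such sums.

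Macrophage genes were called higher at both sites. Of 13 macrophage genes, 9 were called higher and 0 lower near the suture, at a median of 0.81 (0.60 far). C1qa, a subunit of complement C1q made by tissue macrophages, had 727 UMIs at 12m and 1273 at 18m, a ratio of 1.75 (1.60 to 1.92), and stood at 4.17, 59.5 and 104 CPM at 02m, 12m and 18m near the suture and 11.7, 49.8 and 75.6 CPM far from it. Apoe, which carries lipids, had 8289 and 13181 UMIs, and Cd163, the haptoglobin-haemoglobin receptor, 13 and 47 UMIs. The C1qa level was lowest at 02m and highest at 18m at each site.

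Some of the most shifted genes in all cells had most of their UMIs in 1 cell. Ttr, transthyretin, a product of choroid plexus and liver, had 2735 UMIs at 12m and 38 at 18m, and 97.4% of its UMIs at 12m came from 1 cell. Enpp2, autotaxin, had 636 and 88 UMIs with 87.4% in 1 cell, and Ccl22, a chemokine of dendritic cells, 127 and 3 UMIs with 90.6%. Iglc1, an immunoglobulin light chain, had 483 UMIs at 12m and 11412 at 18m with 61.1% in 1 cell at 18m. Others were less concentrated. Slco1a4, a transporter of brain endothelium, had 229 and 27 UMIs, and at 12m 38 cells held it with 14.4% in 1 cell. Ccl8, a monocyte-attracting chemokine, had 3 and 168 UMIs, and Kng1, a kininogen, 2 and 133 UMIs. At 18m before thinning, 65 cells held Ccl8 with 47.4% in 1 cell, and 92 held Kng1 with 6.75% in 1 cell. With the cell that held the most left out of each library, a choice made after the values were seen, Ttr stood at 5.81 and 3.22 CPM at 12m and 18m and Enpp2 at 6.55 and 6.29 CPM. Iglc1 then stood at 34.4 and 359.9 CPM, still higher at 18m. Ccl22 was left with 12 UMIs at 12m and 5 at 18m.

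**Figure D3:**
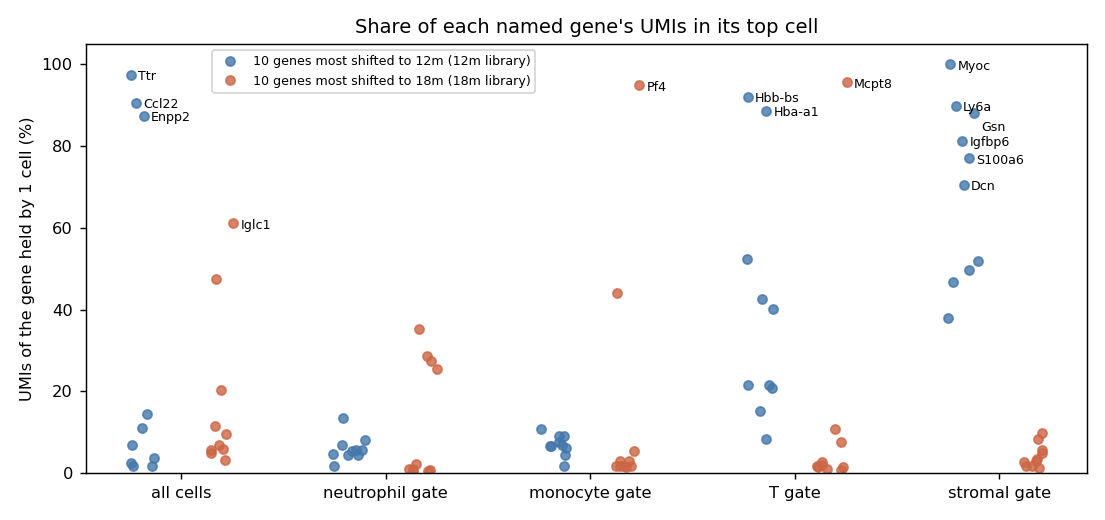
Share of a gene's UMIs (%) held by the cell with the most, for the 10 genes most shifted to 12m (blue, counted in the 12m library) and the 10 most shifted to 18m (orange, in the 18m library) of each class. In the stromal gate 7 of the 10 genes shifted to 12m have over 50% of their UMIs in 1 cell, and in the neutrophil gate none of the 20 does.

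Neutrophil-gate cells of 12m near the suture were rich in transcripts of precursors, and those of 18m in transcripts of mature and stimulated cells. At 5775945 UMIs each, 9198 genes were measured, of which 12.2% were called higher at 18m (1120) and 40.7% lower (3743). Median-of-ratios scaling gave 2179 higher and 2407 lower. Of the 10 genes most shifted to 18m, 9 were Homer1, Nr4a3, Hbb-bs, Steap4, Hbb-bt, Ankrd37, Hba-a1, Tnfaip3 and Hcar2, at ratios of 8.30 to 14.4. Those most shifted to 12m were Hist1h2an, Hist1h2bg, Ighg1, Hist1h2bp, Hist1h3g, Hist1h3a, Rn7sk, Rmi2, mt-Co3 and Hist1h2bm, at 0.0185 to 0.113.

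Most primary and most secondary and tertiary granule genes were called lower at 18m. Camp (chr9:109847379-109849617), the cathelicidin of secondary granules, had 136773 UMIs at 12m and 25413 at 18m, a ratio of 0.186 (0.183 to 0.188). Ngp had 81865 and 19430 UMIs, Ltf, lactoferrin, 21744 and 5947 UMIs, and the transcription factor Cebpe that drives this stage 1720 and 339 UMIs. Mmp8, neutrophil collagenase, had 5260 and 10342 UMIs, a ratio of 1.97 (1.90 to 2.03), and Mmp9, of tertiary granules, 7545 and 8502 UMIs, a ratio of 1.13 (1.09 to 1.16), not called. In all 2 of 18 secondary and tertiary granule genes were called higher and 11 lower, at a median of -1.15, -0.78 relative to all genes. Of 10 primary granule genes, 7 were called lower. Elane, neutrophil elastase, had 8909 UMIs at 12m and 1667 at 18m, a ratio of 0.187 (0.177 to 0.197), Mpo, myeloperoxidase, 8176 and 1841 UMIs, and Prtn3, proteinase 3, 7564 and 1573 UMIs. The 1 called higher was Srgn, the proteoglycan core that packs granules, with 6488 and 21961 UMIs.

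The cell cycle went with the precursors. None of 39 S phase genes was called higher and 39 were called lower, at a median of -1.75, and of 51 G2 and M phase genes 0 were higher and 45 lower, at -1.60. Rrm2, a subunit of ribonucleotide reductase, had 722 UMIs at 12m and 125 at 18m, a ratio of 0.173 (0.142 to 0.210), and Mcm2, of the replicative helicase, 381 and 65 UMIs. Pcna, the sliding clamp, had 1070 and 673 UMIs. Among replication-dependent histone genes, 1 was called higher and 32 lower of 35, with Hist1h2ap at 12814 and 1639 UMIs. CBMA_12m was the highest of the 6 libraries for 39 of the 39 S phase genes and 48 of the 51 G2 and M phase genes. Markers of progenitors in the gate summed to 2999 CPM at 12m and 614 CPM at 18m, and their part in these values was not tested.

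Mature neutrophil genes lay on the other side. Of 24 mature neutrophil genes, 20 were called higher and 0 lower, at a median of 1.15 (0.22 far). Retnlg, a resistin-like product of mature cells, had 59864 UMIs at 12m and 115656 at 18m, a ratio of 1.93 (1.91 to 1.95). Cxcr2, the receptor by which neutrophils leave marrow, had 2817 UMIs at 12m and 7725 at 18m, a ratio of 2.74 (2.63 to 2.86). Clec4d, a lectin receptor, had 1809 and 6914 UMIs, and the decoy receptor Il1r2 978 and 3256 UMIs. Wfdc17, a secreted antiprotease-like protein, had 1448 UMIs at 12m and 8451 at 18m, and Cd14, a coreceptor for bacterial lipopolysaccharide, 189 and 1253 UMIs. The members not called were Mmp25, Cxcr4, Fpr2 and Hdc, of which Cxcr4, the receptor that retains cells in marrow, had 1854 UMIs at 12m and 1756 at 18m, a ratio of 0.947 (0.887 to 1.01). All 7 measured stefin A genes, a mouse cluster of cysteine protease inhibitors with near-identical copies among which reads may be split, were called higher, at a median of 1.30. Stfa2l1 had 1697 and 4174 UMIs.

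Cytokine genes and their regulators were called higher together. Of 30 NF-kB and cytokine genes, 23 were called higher and 1 lower, at a median of 1.26, 1.63 above all genes, while far from the suture 3 called higher and 13 called lower of 34 stood at a median of -0.30. Cxcl2 (chr5:90903871-90905938), the chemokine that draws neutrophils through Cxcr2, had 4221 UMIs at 12m and 25203 at 18m, a ratio of 5.97 (5.78 to 6.17). Il1b (chr2:129364570-129371139), interleukin 1 beta, had 6694 UMIs at 12m and 23073 at 18m, a ratio of 3.45 (3.35 to 3.54). Nfkbia, which holds NF-kB in the cytoplasm, had 1989 UMIs at 12m and 8636 at 18m, a ratio of 4.34 (4.13 to 4.56), and Tnfaip3, the ubiquitin editor A20, 171 and 1484 UMIs. These are both a product and a brake of the pathway. Acod1, which makes itaconate, had 389 and 3010 UMIs, Hcar2, a receptor for hydroxybutyrate and niacin, 583 and 4841 UMIs, and the chemokines Ccl3 and Ccl4 276 and 739 UMIs and 234 and 1207 UMIs. Cxcl3 was the member called lower, at 50 and 16 UMIs, and the NF-kB subunit Nfkb1 had 759 and 569 UMIs, short of the call.

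immediate-early genes, the first genes a stimulus switches on, were called higher in 22 of 27 and lower in 0, at a median of 1.09 (0.028 far). Nr4a3, a nuclear receptor, had 35 UMIs at 12m and 451 at 18m, a ratio of 12.9 (9.13 to 18.7). Atf3 had 395 and 2516 UMIs, Jun 3690 and 12255 UMIs and Fos, its AP-1 partner, 5264 and 13092 UMIs. Klf4 had 273 and 204 UMIs, not called.

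The levels in all 6 libraries show which library stood apart. Cxcl2 was at 2039.6, 731 and 4332 CPM at 02m, 12m and 18m near the suture and 7805, 6687 and 4966 CPM far from it. Nfkbia was at 813, 344 and 1505 CPM at 02m, 12m and 18m near the suture and 2048, 2157 and 1922 CPM far from it, and Nr4a3 at 17.7, 6.06 and 77.4 CPM at 02m, 12m and 18m near the suture and 99.7, 134 and 136 CPM far from it. For these 3 genes CBMA_12m was the lowest of all libraries and the 3 far libraries stood above every near one. Wfdc17 was at 1949, 251 and 1454 CPM at 02m, 12m and 18m near the suture and 3081, 388 and 1094 CPM far from it, low at 12m at both sites. Camp was at 10919, 23679.8 and 4406 CPM at 02m, 12m and 18m near the suture and 1567, 7369 and 2929 CPM far from it, highest at 12m at both sites. CBMA_12m was the lowest of 6 for 14 of 30 NF-kB and cytokine genes, 11 of 27 immediate-early genes, 15 of 24 mature neutrophil genes and 7 of 7 stefin A genes.

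**Figure D4:**
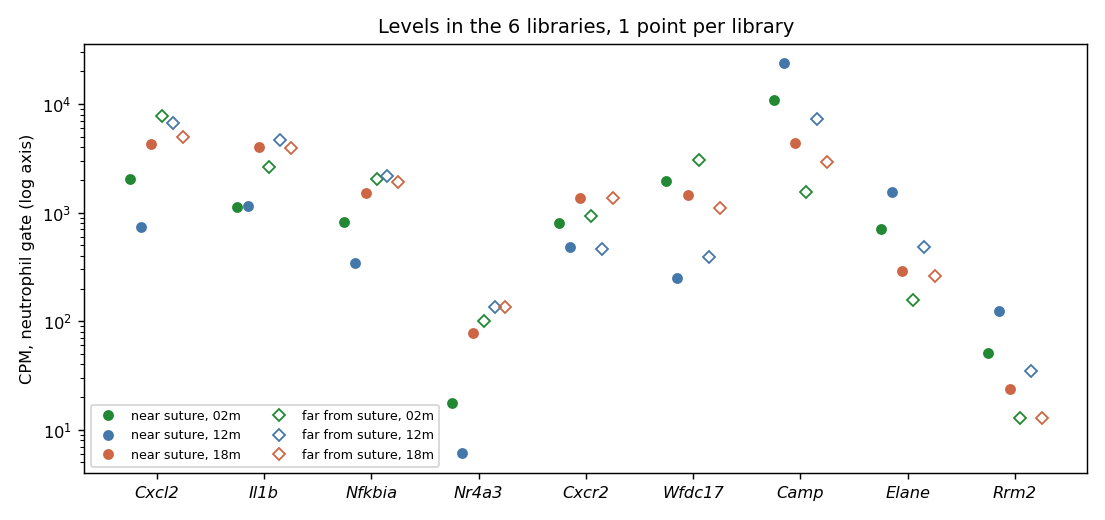
Level of 9 genes in the neutrophil gate (CPM, log axis), 1 point per library, near the suture (filled) and far from it (open) at 02m, 12m and 18m. For Cxcl2, Nfkbia and Nr4a3 the point of 12m near the suture is the lowest of the 6, and for Camp, Elane and Rrm2 it is the highest.

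The medians of these lists were smaller within groups of cells alike in granule transcripts. Cells with at least 0.5% of UMIs from Ltf, Camp and Ngp made up 491 of 1470 neutrophil-gate cells at 12m, 33.4% (31.0 to 35.9), and 302 of 4117 at 18m, 7.34% (6.56 to 8.17). The shares were 21.2% near the suture at 02m and 4.58%, 21.2% and 6.41% far from it at 02m, 12m and 18m, so 12m was the highest age at both sites. Within cells above and below that limit the median of NF-kB and cytokine genes was 0.91 and 0.66, that of immediate-early genes 0.46 and 0.52, and that of mature neutrophil genes 0.84 and 0.36, in place of 1.26, 1.09 and 1.15. The Cxcl2 ratio was 5.24 above the limit and 3.46 below it. Retnlg stood at 3.10 and 1.14. Among cells with a Y-linked UMI and no Xist the Cxcl2 ratio was 8.06 and the medians of NF-kB and cytokine genes and mature neutrophil genes were 1.52 and 1.55.

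Primary granule and cycle genes differed mainly between cells below the limit. The median of primary granule genes was -0.23 above it and -3.10 below it and that of S phase genes -0.47 and -1.40. Elane, in cells below the limit, stood at 1667 and 136 CPM at 12m and 18m. Cells without granule transcripts include the earliest precursors as well as the most mature cells, so a gate on these 3 genes does not separate the 2 ends.

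**Figure D5:**
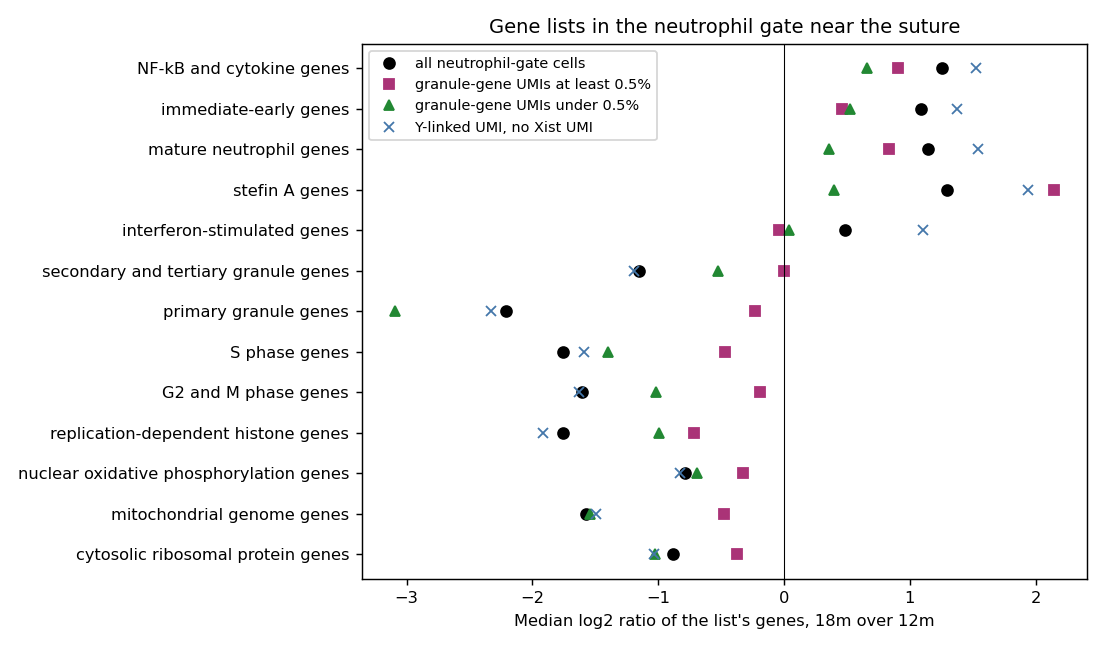
Median log2 ratio (18m over 12m) of 13 gene lists in neutrophil-gate cells near the suture, for all cells of the gate, for cells with granule-gene UMIs of at least 0.5% or under it, and for cells with a Y-linked UMI and no Xist. The NF-kB and cytokine list lies at 1.26 in all cells and at 0.91 and 0.66 in the 2 granule groups, and the primary granule list at -2.21, -0.23 and -3.10.

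Energy and protein synthesis genes were called lower with the precursors' genes. 12 of 13 mitochondrial genome genes, 50 of 74 nuclear oxidative phosphorylation genes and 64 of 81 cytosolic ribosomal protein genes were called lower and 0 of the last higher, at medians of -1.57, -0.79 and -0.89. mt-Cytb, cytochrome b, had 21797 UMIs at 12m and 6531 at 18m, a ratio of 0.300 (0.291 to 0.308). Within cells above the granule limit the medians of these lists, in the same order, were -0.48, -0.33 and -0.38. The mitochondrial list leaves out the ribosomal RNAs mt-Rnr1 and mt-Rnr2. With all mitochondrial transcripts counted, their median share of UMIs per cell in this gate was 0.918% at 12m and 1.25% at 18m. The lower calls thus hold for the list and not for mitochondrial RNA as a whole. Interferon-stimulated genes were called higher in 16 of 39 and lower in 1, at a median of 0.48 (0.44 far), but the median of interferon-stimulated genes was -0.04 and 0.037 within the 2 granule groups. Isg15 stood at 620.1, 48.8 and 109 CPM at 02m, 12m and 18m near the suture and 664, 83.1 and 77.0 CPM far from it, so both older ages were below 02m.

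Sequence near the starts of these cytokine genes is shown because the list was called higher together. The letters GGG, then 2 bases of any kind, then TTTCC, a core form of the NF-kB site, and their reverse complement were searched after the values were seen. The windows run from 250 bases before to 50 after each start in RefSeq promoters on GRCm38.p6. The motif was in 9 of the 21 matched genes of the 30 measured NF-kB and cytokine genes and in 512 of 27025 genes with such a window (1.89%). The list was drawn up around NF-kB, so a share above that of all genes comes with the choice of members. It does not bear on the difference between 12m and 18m. It was in 1 of 22 immediate-early and 0 of 20 mature neutrophil genes matched. Windows of 30 bases follow, 5′ to 3′ on the strand of the gene, with the match in capitals.
Cxcl2, chr5:90903792-90903821, plus strand: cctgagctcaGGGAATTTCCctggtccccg
Cxcl1, chr5:90891164-90891193, plus strand: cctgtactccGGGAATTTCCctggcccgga
Cxcl3, chr5:90786018-90786047, plus strand: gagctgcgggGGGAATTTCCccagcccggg
Nfkbia, chr12:55492657-55492686, minus strand: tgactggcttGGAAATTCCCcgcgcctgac
Tnfaip3, chr10:19015403-19015432, minus strand: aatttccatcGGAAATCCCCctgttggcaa
Il1rn, chr2:24345310-24345339, plus strand: ggaaatatgaGGGTTTTTCCgcttctgaca
Nfkb2, chr19:46305695-46305724, plus strand: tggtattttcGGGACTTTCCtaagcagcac
Cxcl1, Cxcl2 and Cxcl3 share the same 10 letters, while in the neutrophil gate Cxcl2 had 4221 and 25203 UMIs, Cxcl1 15 and 58 UMIs and Cxcl3 50 and 16 UMIs at 12m and 18m, so a like match went with unlike ratios. Nfkb2 had 292 and 498 UMIs and Il1rn, the interleukin 1 receptor antagonist, 687 and 1261 UMIs. A match describes these letters and does not show binding.

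Red cell transcripts moved with age in the same gate and in opposite ways at the 2 sites. Hbb-bs, a globin chain, had 294 UMIs at 12m and 3245 at 18m in the neutrophil gate and stood at 1997, 50.9 and 560.3 CPM at 02m, 12m and 18m near the suture and 219, 1913 and 147 CPM far from it. Erythroid markers in the gate summed to 79.6 CPM at 12m and 806 CPM at 18m near the suture. None of the 3 erythroid markers was at 0 in the neutrophil gate of either library. Globin genes are not known as products of neutrophils, and how these transcripts came into the gate was not tested.

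Monocyte-gate cells differed less than neutrophils. At 3066164 UMIs each, 8693 genes were measured, of which 5.88% were called higher (511) and 9.55% lower (830). The genes most shifted to 12m were of neutrophils and their precursors. Camp had 23342 UMIs at 12m and 724 at 18m, a ratio of 0.0310 (0.0288 to 0.0334), and Ngp 14990 and 586 UMIs. The other 8 were Itgb2l, Ighg1, Gca, Ltf, Adgrg3, Ms4a3, Syne1 and Wfdc21. Neutrophil markers in the gate summed to 15616 CPM at 12m and 1669 CPM at 18m, and 24% of its cells at 12m and 10.9% at 18m also passed another gate. Without the cells of more than 1 gate Camp stood at 287 and 30.1 CPM at 12m and 18m, which is far lower at 12m yet still above 18m. Elane and Mpo, which early monocyte precursors also make, had 2882 and 423 UMIs and 3137 and 584 UMIs.

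Inflammatory and heat shock genes were called higher in the 18m monocytes. The 10 most shifted to 18m were Fam71a, Tmem88, Hspa1a, Slc5a3, Pf4, Nr4a3, Hsph1, Rabgef1, Hook2 and Lyz1, and 94.9% of the Pf4 UMIs at 18m lay in 1 cell. Hspa1a (chr17:34969190-34972156), the inducible HSP70, had 105 UMIs at 12m and 571 at 18m, a ratio of 5.44 (4.41 to 6.76). Hspa1b, its near-identical neighbour with which reads may be shared, had 129 and 412 UMIs, and its cofactor Hsph1 40 and 145 UMIs. Of 13 heat shock and chaperone genes, 6 were called higher and 0 lower, at a median of 0.45. Hspa1a stood at 42.5, 34.2 and 180.4 CPM at 02m, 12m and 18m near the suture and 98.2, 269 and 226 CPM far from it, so the far library of 12m was not low.

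Of 27 NF-kB and cytokine genes, 11 were called higher and 1 lower, at a median of 0.47 (0.33 in cells of 1 gate only, -0.72 far). Ccl3 had 160 UMIs at 12m and 444 at 18m, a ratio of 2.77 (2.31 to 3.35), Ccl4 130 and 383 UMIs, and Cxcl2 229 and 671 UMIs. In cells of 1 gate only the ratios of Ccl3 and Cxcl2 were 2.67 and 2.69. Of 26 immediate-early genes, 7 were called higher and 1 lower, with Atf3 at 309 and 982 UMIs and Nr4a2 at 150 and 458 UMIs. Atf3 stood at 34.4, 101 and 313 CPM at 02m, 12m and 18m near the suture and 116, 703 and 369 CPM far from it. For Atf3, as for Hspa1a, 12m was below 18m near the suture and above it far from the suture.

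Genes of monocyte function shifted to 18m in part. Of 19 classical monocyte genes, 5 were called higher and 2 lower, at a median of 0.35. Vcan, versican, had 394 UMIs at 12m and 1174 at 18m, a ratio of 2.98 (2.66 to 3.35), and Thbs1, thrombospondin 1, 100 and 261 UMIs. F13a1, a coagulation factor subunit, had 4037 and 6573 UMIs, Chil3, a chitinase-like protein of young myeloid cells, 12071 and 5456 UMIs, and Ly6a 190 and 83 UMIs. Vcan stood at 124, 128 and 374 CPM at 02m, 12m and 18m near the suture and 119, 148 and 438 CPM far from it, highest at 18m at both sites. Of 10 macrophage genes, 4 were called higher and 3 lower, with Apoe at 1820 and 4148 UMIs, a ratio of 2.28 (2.16 to 2.41), and C1qb at 4 and 76 UMIs.

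Antigen presentation by MHC class II was nearer the threshold. Of 7 MHC class II genes, 3 were called higher and 0 lower, at a median of 0.57, 0.60 above all genes (-0.12 far). Cd74, the invariant chain, had 2988 UMIs at 12m and 4818 at 18m, a ratio of 1.61 (1.54 to 1.69), H2-Ab1 820 and 1326 UMIs and H2-Aa 1107 and 1646 UMIs. CBMA_18m was the highest of 6 libraries for 7 of the 7 genes. Cd74 stood at 252, 975 and 1578 CPM at 02m, 12m and 18m near the suture and 300.3, 952 and 880.2 CPM far from it, so 02m was the lowest age at both sites. In cells of 1 gate only the list of MHC class II genes had 5 called higher and 0 called lower of 7, at 0.64.

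Interferon-stimulated genes had no settled direction in monocytes. Of 42 interferon-stimulated genes, 0 were called higher and 10 lower, at a median of -0.25. In cells of 1 gate only the count was 0 called higher and 19 called lower of 41, and among cells with a Y-linked UMI and no Xist it was 6 called higher and 1 called lower of 27 at a median of 0.35. Ifit1, an RNA-binding antiviral protein, had 110 and 48 UMIs, a ratio of 0.436 (0.304 to 0.618), which became 2.56 among the latter cells. Cycle genes stood near the median of the class, with S phase genes at a median of -0.052 and G2 and M phase genes at -0.17, although cells with under 2 UMIs of 6 cycle genes made up 52.9% of the gate at 12m and 66.2% at 18m. Of 13 mitochondrial genome genes, 1 was called higher and 6 lower, at a median of -0.57 (0.07 far), and of 74 nuclear oxidative phosphorylation genes 0 were called higher and 5 lower, at a median of 0.01. All mitochondrial transcripts, ribosomal RNAs included, made up a median of 1.65% of UMIs per cell in the gate at 12m and 2.53% at 18m.

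T-gate cells of 18m held more heat shock and cytokine transcripts and fewer of regulatory and gamma delta T cells. At 696677 UMIs each, 4173 genes were measured, of which 4.98% were called higher (208) and 19.4% lower (811). Median-of-ratios scaling gave 393 higher and 413 lower. The T-cell markers outside the gate's own genes (Trac, Trbc1, Trbc2, Cd8a and Cd4) summed to 2424 CPM at 12m and 1746 CPM at 18m. Neutrophil markers summed to 5136 CPM at 12m and 2604 CPM at 18m and erythroid markers to 673 CPM at 12m and 50.4 CPM at 18m, and Hbb-bs, Hba-a1, Prtn3, Mpo, Elane, Ltf and Ifitm6, which are not T-cell genes, were among the 10 most shifted to 12m together with Ighg1, Trdc and Hist1h2ap. In Hbb-bs 92.1% of the 12m UMIs lay in 1 cell.

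Hspa1a had 3 UMIs at 12m and 123 at 18m, a ratio of 41 (13.7 to 202), and Hspa1b 18 and 113 UMIs, a ratio of 6.28 (3.80 to 11). Of 12 heat shock and chaperone genes, 6 were called higher and 0 lower, at a median of 0.63 (-0.089 far). Hspa1a stood at 13.7, 4.31 and 168 CPM at 02m, 12m and 18m near the suture and 19.5, 497 and 323 CPM far from it, so within T cells it was low at 12m near the suture and at 02m at both sites. Of 19 NF-kB and cytokine genes, 10 were called higher and 0 lower, at a median of 0.63 (-0.54 far). Nfkbia had 277 UMIs at 12m and 599 at 18m, a ratio of 2.16 (1.87 to 2.50), Tnfaip3 184 and 366 UMIs, and Nr4a3, which T-cell receptor signals induce, 42 and 137 UMIs. Gadd45b, a stress gene, had 78 and 227 UMIs. In CD8 cells without Cd4 the ratios of Nfkbia, Nr4a3 and Gadd45b were 2.54, 3.88 and 4.78.

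Of 9 regulatory T genes, 0 were called higher and 6 lower, at a median of -1.04 (-1.32 far, with 0 called higher and 6 called lower of 10). Tnfrsf4, the costimulatory receptor OX40, had 43 UMIs at 12m and 10 at 18m, a ratio of 0.233 (0.104 to 0.470). Ctla4, the inhibitory receptor, had 38 and 17 UMIs, Il2ra, the high-affinity interleukin 2 receptor chain, 43 and 20 UMIs, and Izumo1r, folate receptor 4, 59 and 26 UMIs. These are sums of few UMIs. Ctla4 stood at 31.8, 54.5 and 28.5 CPM at 02m, 12m and 18m near the suture and 21.7, 72.1 and 24.5 CPM far from it. Of 5 gamma delta and innate-like T genes, 4 were called lower, and Trdc, the delta chain constant region, had 130 UMIs at 12m and 15 at 18m, a ratio of 0.115 (0.0628 to 0.197).

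Genes of cytotoxic and age-associated T cells stood nearly level. Of 19 T effector and age-associated T genes, 3 were called higher and 2 lower, at a median of -0.035. Ccl5, a chemokine of memory cells, had 3433 UMIs at 12m and 2995 at 18m, a ratio of 0.872 (0.830 to 0.916), Nkg7 577 and 459 UMIs, Gzmk, granzyme K, 31 and 26 UMIs, and Eomes 83 and 97 UMIs. Ifng, interferon gamma, had 45 UMIs at 12m and 95 at 18m, a ratio of 2.11 (1.47 to 3.08), while Id2 had 427 and 245 UMIs. Ccl5 stood at 1190.0, 4928 and 4325 CPM at 02m, 12m and 18m near the suture and 1239, 5099 and 3184 CPM far from it, so both older ages were above 02m at each site. Dapl1, of quiescent naive cells, had 12 and 40 UMIs, and Klf2, which keeps T cells quiescent and recirculating, 406 and 225 UMIs. CD8 cells without Cd4 made up 37.9% of the gate at 12m (29.1 to 47.4) and 48.7% at 18m (43.6 to 53.8), intervals that overlap.

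The stromal gate compares 15 cells with 242, and 77201 UMIs on each side after thinning. With 15 cells at 12m, 1 cell rich in UMIs weighs on every ratio and list median of this gate. Only 381 genes were measured, of which 17.1% were called higher (65) and 27% lower (103). Median-of-ratios scaling gave 86 higher and 66 lower. The 10 most shifted to 12m were Myoc, Ly6a, Igfbp6, Gsn, Clu, Spp1, Fos, Dcn, S100a6 and Rpl27a. In 7 of these over 50% of the gene's 12m UMIs were in 1 cell, 100% for Myoc, 88.2% for Gsn and 70.6% for Dcn. Each of these ratios thus describes mainly 1 cell of 12m, which was not the same cell for all 7 genes. The 10 most shifted to 18m were Col3a1, mt-Rnr1, Lars2, Aebp1, Igfbp5, Col12a1, Sparc, mt-Rnr2, Ogn and Hspa5.

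Per stromal transcript, matrix genes were again called higher in part. Col3a1 had 19 UMIs at 12m and 242 at 18m, a ratio of 12.7 (7.98 to 21.5), and was found in 4 of 15 cells at 12m and 179 of 242 at 18m. Sparc had 154 and 395 UMIs, a ratio of 2.56 (2.12 to 3.11), Mgp 323 and 663 UMIs and Col12a1 46 and 125 UMIs. Of 12 collagen and other matrix genes, 6 were called higher and 3 lower, at a median of 0.32 (-0.75 far). Of 6 small leucine-rich proteoglycan genes, 3 were called higher and 1 lower, at a median of 0.67, but their summed level had a ratio of 0.608 (0.553 to 0.669) with Dcn, the most abundant of them, at 874 UMIs at 12m and 282 at 18m. Col3a1 in the gate stood at 10532, 246 and 2675 CPM at 02m, 12m and 18m near the suture and 4807, 4365 and 278 CPM far from it.

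Of 12 marrow niche and CAR cell genes, 3 were called higher and 1 lower, with Igfbp5 at 260 and 706 UMIs, a ratio of 2.72 (2.35 to 3.14), Kitl at 20 and 45 UMIs and Lepr at 34 and 45 UMIs, a ratio of 1.32 (0.829 to 2.13). Of 10 suture and tendon-like genes, 3 were called higher and 3 lower, with Postn at 3 and 55 UMIs and Sfrp2, which binds Wnt ligands, at 351 and 211 UMIs. Spp1, osteopontin, had 529 and 144 UMIs, and Ibsp 161 and 98 UMIs. 0 of 13 immediate-early genes were called higher and 11 lower, at a median of -1.11 (-1.18 far), with Fos at 120 UMIs at 12m and 37 at 18m, a ratio of 0.308 (0.207 to 0.449). At 12m 46.7% of the Fos UMIs lay in 1 of the 15 cells, and with the cell that held the most left out of each library Fos stood at 1079 and 541 CPM in place of 1554 and 558 CPM. The median of this list was above 0 in neutrophils, and the difference between the classes was not tested. Cxcl9, an interferon gamma-induced chemokine, had 0 and 71 UMIs. With 3 UMIs put in place of the 0 at 12m the fold is 23.7, a floor for counting error of UMIs only. A gene held by few cells can be at 0 in 15 cells, and how many cells held Cxcl9 at 18m is not given here. The 23.7 is therefore no lower limit for stromal cells in general.

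Some genes set both 12m libraries apart from the other 4. mt-Co3 in all cells stood at 15.6, 92.9 and 15.3 CPM at 02m, 12m and 18m near the suture and 10.5, 50.3 and 15.1 CPM far from it, and mt-Co2 at 7.93, 49.7 and 7.41 CPM at 02m, 12m and 18m near the suture and 7.89, 23.7 and 7.51 CPM far from it. In the T gate the mitochondrial ribosomal RNA mt-Rnr2 stood at 19077, 4128 and 14716 CPM at 02m, 12m and 18m near the suture and 17459, 7713 and 17973 CPM far from it, low in both 12m libraries. Ighg1 in the neutrophil gate stood at 1.28, 289 and 13.3 CPM at 02m, 12m and 18m near the suture and 0.373, 97.1 and 10.7 CPM far from it, high in both. What sets the 12m libraries apart on these genes was not tested, and the same 2 libraries are those with Xist.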

How the data were processed

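Cells of 6 libraries, 1 per age and site, were profiled by single-cell 3′ RNA-seq (10x Genomics). Per the file headers and methods, the authors ran bcl2fastq and then Cell Ranger 5.0.1 against the GRCm38 genome, and deposited whole-number counts per gene and barcode, not normalized.

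UMI sums of each gate were thinned once (seed 1) to the smaller total, without X and Y genes. A ratio has an exact conditional Poisson interval of 95% and a share an exact Clopper-Pearson interval. No test was made with 1 library per condition. Gate genes were not compared in their own gate. Named genes are the 10 highest and 10 lowest per class with at least 100 UMIs, members of 45 lists and genes the study names, of which a few are not reported here. Members and lists were chosen with earlier results of these data known. Automatic doublet calls were 4 and 3 cells, too few to have worked, so the 71 and 483 highest scores were left out in an alternative. Other alternatives were minima, scalings, thinning per cell, sub-gates and cells without Xist, some added after the data were seen. Scripts used matplotlib 3.10.9, pandas 2.3.3, scipy 1.17.1 and numpy 2.4.6 under Python 3.11.15. The ratio, its interval and the call were tested on sums simulated from the neutrophil gate. Gene positions are from GENCODE on GRCm38, in which all 55450 gene IDs matched.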

Additional observations from a re-analysis of the deposited data

Results flagged for a closer look

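Near and far from the suture, 6 lists had median log2 ratios of 18m to 12m past 1.5-fold in opposite directions in at least 1 class. The differences between sites were not tested, as each site has 1 library per age. In all cells the suture and tendon-like genes stood at 2.57 near and -0.94 far, the small leucine-rich proteoglycan genes at 2.49 and -0.59, the osteoblast and mineralization genes at 1.48 and -0.61, the mural genes at 1.14 and -0.82, and the erythroid genes at 0.97 and -1.45. In the neutrophil gate the erythroid genes stood at 1.92 near and -3.69 far. The small leucine-rich proteoglycan genes stood at 0.67 and -0.77 in the stromal gate, and the immunoglobulin and plasma cell genes at -0.99 and 1.05 in the T gate. Each of these 2 near medians is of 6 genes, and the stromal gate near the suture held 15 cells at 12m. The summed proteoglycan list had ratios of 0.608 near and 0.547 far, below 1 at both sites. The summed immunoglobulin list had ratios of 1.02 (0.976 to 1.07) near and 36.5 far, so its near sum was not lower. At 12m the far library was high for erythroid genes (Hbb-bs 103, 4221 and 470.2 CPM at 02m, 12m and 18m), and the 18m library near the suture was the highest of the 6 for 13 of the 18 suture and tendon-like genes.

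Xist, which lies on the X chromosome outside the genes compared, stood at 564 CPM in the 12m library near the suture although the mice are stated to be male.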

How the results depend on the processing

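No paired analysis was possible because each age and site has 1 library and the groups share replicate number 1 only. Counts of calls moved with the minimum, the depth and the cells kept. In the order all cells, neutrophil, monocyte, T and stromal gates, no minimum gave 7029, 4847, 4766, 3785 and 3595 genes higher at 18m and 6825, 9880, 5023, 5779 and 5663 lower, and a minimum of 200 UMIs gave 650, 799, 168, 42 and 15 higher and 1238, 1684, 263, 104 and 11 lower. With each cell thinned to 1000 UMIs the counts were 484, 448, 161, 40 and 9 higher and 2393, 1551, 208, 110 and 7 lower. Cells with a Y-linked UMI and no Xist gave 962, 1162, 479, 89 and 3 higher and 1434, 1900, 471, 189 and 3 lower. Sums not thinned gave 798 higher in the monocyte gate, 400 higher and 1348 lower in the T gate, and 1479 and 1945 in the stromal gate. Median-of-ratios scaling gave 2179 higher and 2407 lower in neutrophils, 393 and 413 in T cells, and 66 lower in stromal cells. The 12m mix of UMIs over the gates left 910 higher in all cells. Neutrophils with granule UMIs of at least 0.5% had 576 higher and 928 lower, and those under it 387 and 2350. T cells of 1 gate had 137 higher, and CD8 cells 110 higher and 275 lower. Stromal cells with more Cxcl12 than collagen had 27 higher and 20 lower, and the others 37 higher. The cause was not tested.

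The T-cell share turned from 1.24 to 0.900 and the monocyte share moved from 1.06 to 0.820 with cells thinned to 2000 UMIs, and with a Y-linked UMI and no Xist the neutrophil share was 0.967 and the stromal share 11.4. Of the values of single genes and lists, 29 and 2 turned direction, on the log2 scale. In all cells these were Dcn (-0.050 with thinned cells, -0.98 in the 12m mix), Ibsp (-0.34), Kitl (-0.085) and Lepr (-0.20) in that mix, and Enpp2 (1.31) without Xist. In neutrophils with high granule UMIs they were Gbp2 (-0.44), Hba-a1 (-0.038), Hbb-bs (-0.35), Ighg2c (-1.95), Isg15 (-0.10) and Ltf (0.044), with low ones Lcn2 (0.28), and with thinned cells Ighg2c (-0.37). In monocytes without Xist they were Ifit1 (1.35), Ly6a (0.12) and Rsad2 (0.77), with immunoglobulin and plasma cell genes at 1.71, and with few cycle UMIs Pf4 (-0.49) and the same list at 0.41. In T cells they were Hba-a1 in 1 gate (0.61) and, in CD8 cells, Hba-a1 (1.77), Hbb-bs (0.11) and Hist1h2ap (0.51), and Mcpt8 without doublets (-1.18). In the stromal gate they were Dcn without Xist (2.32), Dcn (2.14), Ibsp (0.28), S100a6 (0.56) and Spp1 (2.45) with more Cxcl12, and Kitl with thinned cells (-1.06). The cause was not tested.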

Other observations

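In all cells near the suture, blood lineages outside the gates had lists that went either way. Of 13 measured erythroid genes 9 were called higher at 18m and 0 lower, at a median of 0.97 (-1.45 far). Of 10 measured basophil and mast cell genes 0 were called higher at 18m and 0 lower, at a median of 0.19. Mcpt8, a basophil protease, had 5870 UMIs at 12m and 8333 at 18m, a ratio of 1.42 (1.37 to 1.47), and Cpa3 of mast cells and basophils 787 and 950 UMIs. Of 13 B-lineage genes, 0 were called higher and 5 lower, at a median of -0.52 (-1.75 far). Ms4a1, the B-cell antigen CD20, had 247 UMIs at 12m and 164 at 18m, a ratio of 0.664 (0.542 to 0.812), and Pax5, the factor that fixes B-cell identity, 97 and 55 UMIs. Of 5 megakaryocyte genes, 0 were called higher and 4 lower, with Itga2b, the platelet integrin, at 352 and 226 UMIs.

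Patrolling monocyte genes went lower in part while macrophage genes were called higher. Of 13 nonclassical monocyte genes, 1 was called higher and 6 lower, at a median of -0.42 (-0.82 far). Ace, the angiotensin-converting enzyme, had 404 UMIs at 12m and 206 at 18m, a ratio of 0.510 (0.429 to 0.605), and Spn, the sialoprotein CD43, 1706 and 891 UMIs. Cx3cr1, the fractalkine receptor, had 1544 and 1445 UMIs, a ratio of 0.936 (0.870 to 1.01), not called. Of 8 Schwann cell genes, 6 were called higher and 1 lower, with S100b at 28 and 213 UMIs and Ncam1 at 1183 and 429 UMIs. Of 13 fibroblast genes, 6 were called higher and 2 lower, at a median of -0.26. Dpt, dermatopontin, had 15 and 125 UMIs, and Pi16, which marks fibroblasts around vessels, 1751 and 1449 UMIs.

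In the neutrophil gate the list of cell cycle inhibitor and p53 genes had 7 called higher and 5 lower of 17. Cdkn1a, the p21 inhibitor, had 208 UMIs at 12m and 415 at 18m, a ratio of 2.00 (1.69 to 2.37), and Gadd45b 991 and 3819 UMIs, while Cdkn2c, the p18 inhibitor of dividing cells, had 283 and 78 UMIs. Cdkn1a stood at 41.8, 36.0 and 71.4 CPM at 02m, 12m and 18m near the suture and 113, 118 and 95.6 CPM far from it, lowest in the 12m library near the suture. Lmnb1, lamin B1, whose loss marks senescent cells, had 1418 and 3813 UMIs, higher at 18m.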
